A study of Homo sapiens with 8 samples.

Results

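The lysosome hydrolases, the proteins of the lysosomal membrane and the subunits of the proton pump were examined as 52 genes among the 60234 listed. They were chosen by name: 22 symbols of the pump's V1 and V0 sectors, found by the pattern of their symbols, and 30 listed genes for hydrolases, an activator precursor and membrane or transport proteins. Where a symbol stood on several Ensembl identifiers, the row with the highest mean was kept, which applied to ATP6V1G2 (7 identifiers) and NEU1 (8 identifiers). The measurements come from Rh41, an established human line of alveolar rhabdomyosarcoma that is positive for the PAX3-FOXO1 fusion. The labels give 4 control libraries (CTR) and 4 libraries with knockdown of G9a (siG9a), the histone H3 lysine 9 methyltransferase encoded by EHMT2, with replicate numbers 1 to 4 in each group. The sample names call the agent siG9a and the title of the series calls it shG9a, and what the control cells received is not given in the sources used here. All 8 libraries share the line and the fusion, and results rest on 1 line.

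The lysosome is the acidic compartment in which cells break down protein, glycans and lipids. Its pump, the V-ATPase, has a cytosolic V1 sector that hydrolyses ATP and a V0 sector in the membrane that carries protons into the lumen, where the low pH activates the hydrolases. Many lysosome genes are known targets of the transcription factors TFEB, TFE3 and MITF, which bind an E-box with the core CACGTG, and G9a has been described elsewhere as a repressor of genes that serve autophagy.

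Values are CPM, a gene's reads scaled to a common library total, from 3′ mRNA sequencing, in which reads come from transcript ends, so that a level does not scale with transcript length. Library totals ran from 1458825 to 1938665 reads, and 3 reads, the limit that a count of 0 allows, were worth 1.55 to 2.06 CPM. That limit covers counting error only. EHMT2, the targeted gene, measured 57.6, 68.1, 87.3 and 88.3 CPM in CTR replicates 1 to 4 and 19.6, 35.1, 33.1 and 58.5 CPM in siG9a. It was lower in 4 of 4 pairs of libraries with the same number, while siG9a replicate 4 lay just above CTR replicate 1. Its log2 change was -1.10, and its limma adjusted p was 0.191, or 0.000472 in a fit that blocks on replicate number. Of 6 skeletal muscle markers, all 6 had a mean of at least 1 CPM. With the block 3 fell at an adjusted p under 0.05 by limma (50%, where 6.52% of all genes tested fell). The summed level of the 6 was 245 to 1579 CPM in CTR and 211 to 1164 CPM in siG9a. In both groups the lowest library was replicate 3, with MYOD1 at 95.3 and 128 CPM where the other libraries lay between 608 and 864 CPM. Of 8 macrophage and osteoclast markers, 2 reached a mean of 1 CPM, the sum of all 8 was 1.22 to 7.98 CPM in CTR and 2.43 to 9.75 CPM in siG9a, and CD163 was listed at 0 in all 8 libraries. Of 4 melanocyte markers 0 reached a mean of 1 CPM (summed level 0 to 0.61 CPM in CTR and 0 to 2.42 CPM in siG9a), with MLANA and TYR listed at 0 throughout. Of 6 fibroblast markers 3 did, with sums over all 6 of 55.0 to 66.8 CPM in CTR and 13.7 to 65.4 CPM in siG9a. Of those 3, COL1A1 alone fell with the block (33.3%, beside 6.52% of all genes tested). Mitochondrial genes held 4.59% to 9.18% of reads in CTR and 5.21% to 13.7% in siG9a. The part of these differences in the results below was not tested.

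A mean of at least 1 CPM was reached by 45 of the 52 genes, 16 of 22 pump symbols and 29 of 30 others. Tests were made with limma on log2(CPM + 1) over all 15092 genes at that level, first with the group alone and then with the replicate number as a block, here called the paired fit. Without the block 0 of the 45 genes passed an adjusted p of 0.05, as did 0 of all genes (0%), while 4 of the 45 had an unadjusted p under 0.05 against 12.5% of all genes. edgeR without the block also called 0 of the 45 and 0 of all genes. DESeq2 without the block called 2 of the 45, where it called 291 of all 15092 genes. In the paired fit 6 of the 45 (13.3%) were called, against 11.4% of all genes, so the share is close to that of genes at large. ATP6V1B2, ATP6V0B and ATP6V1G1 rose in that fit, and NEU4, PSAP and CTSB fell. Of the 45 log2 changes, 29 were above 0 and 16 below, with a median of 0.15, where the median of all genes was 0.01.

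**Figure D1:**
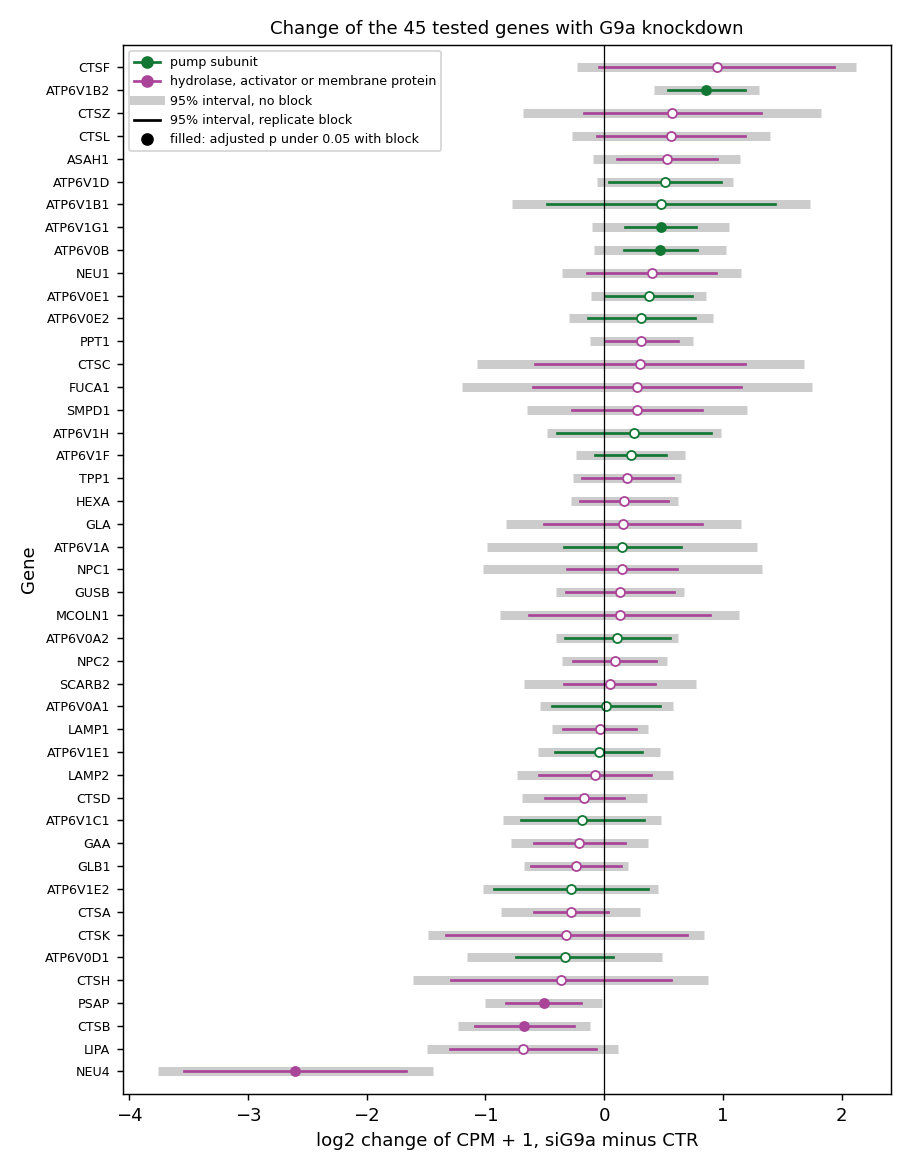
Change of each of the 45 tested genes, as the difference of mean log2(CPM + 1), siG9a minus CTR; thin coloured lines are 95% intervals of the paired fit, thick grey bars those without the block, and filled points are genes called in the paired fit. The 6 filled points are 3 pump subunits to the right of 0 and PSAP, CTSB and NEU4 to the left, and only NEU4 lies beyond 1 in either direction.

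Pump subunits are described first, by sector. Of the 16 tested, 3 rose in the paired fit (18.8%, where 4.86% of all genes rose) and 0 fell (6.52% of all genes fell). The 12 log2 changes above 0 and 4 below had a median of 0.24. The summed CPM of all 22 subunits was 972, 986, 1306 and 844 in CTR replicates 1 to 4 and 1287, 1266, 1627 and 1070 in siG9a, so it was higher in 4 of 4 pairs while the groups overlapped. The 3 called subunits held 77.9% of the difference between the group means of that sum. The median log2 difference over the 16 was 0.48, 0.24 and 0.26 in pairs 1 to 3 and -0.10 in pair 4.

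ATP6V1B2 encodes the widely expressed form of the B subunit, which alternates with the catalytic A subunit in the V1 ring. It measured 91.9, 70.5, 84.9 and 60.2 CPM in CTR replicates 1 to 4 and 141.3, 144, 150.7 and 120.4 CPM in siG9a. All 4 siG9a values lay above all 4 CTR values, a pattern shown by 3.88% of all genes tested. Each siG9a library was at 154% to 204% of the CTR library with its number. The log2 change was 0.86 ± 0.16 (SE) with a limma adjusted p of 0.000654 in the paired fit, and the adjusted p was 0.126 without the block. An exact two-sided permutation test of the 8 values gave 0.0286, the smallest p that 4 against 4 allow. Any gene without overlap gets this p, which is not adjusted over genes. ATP6V1B2 was called in all 9 fits run with the block and by DESeq2 without it (adjusted p = 0.0281).

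ATP6V1G1, for the main G subunit of the peripheral stalks that hold the V1 head, had the highest mean of the V1 genes. It measured 203, 199, 265 and 129.8 CPM in CTR and 326, 218, 364 and 202 CPM in siG9a. The groups overlapped, and replicate 3 was highest and replicate 4 lowest in CTR, while each siG9a library was above the CTR library of its number, as for 14.9% of all genes tested. The log2 change was 0.47 ± 0.14 (SE), with limma adjusted p-values of 0.0327 in the paired fit and 0.503 without the block. The call was held in 4 of 9 paired fits, and was lost by DESeq2 (0.0583) and when any of the 4 pairs was left out, with adjusted p-values of 0.153, 0.0537, 0.119 and 0.0754 without replicates 1 to 4.

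In the V0 sector ATP6V0B stood highest; it encodes a proteolipid subunit of the rotating membrane ring. It measured 201.5, 242, 351 and 153 CPM in CTR and 257, 330.5, 394 and 292 CPM in siG9a. The ranges overlapped, with CTR replicate 3 above siG9a replicates 1, 2 and 4, and all 4 pairs were higher in siG9a. The log2 change was 0.47 ± 0.15 (SE), with limma adjusted p-values of 0.0367 in the paired fit and 0.484 without the block. This call was held in 3 of 9 paired fits, and was lost by DESeq2 (adjusted p = 0.0867), with median-ratio scaling (0.0511) and without each of the 4 pairs (0.0589 to 0.151).

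The 13 other tested subunits were not called, at log2 changes from -0.33 (ATP6V0D1) to 0.51 (ATP6V1D). ATP6V1D, part of the central rotor, measured 26.9 ± 6.44 CPM in CTR and 38.7 ± 7.91 CPM in siG9a (SD, n = 4 each; limma adjusted p = 0.156 in the paired fit). ATP6V1D passed the threshold in 1 of the 9 paired fits, the one without replicate 4 (0.0457). ATP6V1F, also of the rotor, was higher in 4 of 4 pairs at 157 ± 20.4 and 185 ± 38.5 CPM, with a 95% interval of the paired log2 change from -0.07 to 0.52. ATP6V1C1, for a C subunit of the V1 sector, was lower in 4 of 4 pairs (as were 15.3% of all genes tested). It stood at 19.1 ± 4.31 and 17.01 ± 5.55 CPM, with an interval from -0.70 to 0.33. Intervals were wider for ATP6V1H, the regulatory H subunit, at 9.38 and 11.6 CPM (-0.40 to 0.90). ATP6V1E1, the common E subunit of the stalks, stood at 55.4 ± 13.0 and 52.8 ± 6.87 CPM, and ATP6V1E2, its testis form, at 11.5 ± 2.07 and 9.63 ± 3.43 CPM. For the catalytic ATP6V1A the paired interval was -0.34 to 0.65 and the interval without the block -0.98 to 1.29.

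In the V0 sector, ATP6V0D1, which couples the rotor to the membrane ring, stood at 51.4 ± 14.7 CPM in CTR and 44.9 ± 27.4 CPM in siG9a, lower in 3 of 4 pairs (limma adjusted p = 0.313 in the paired fit). ATP6V0E1 and ATP6V0E2, forms of the small e subunit, stood at 59.2 ± 10.1 and 28.8 ± 4.49 CPM in CTR and 77.1 ± 14.9 and 37.2 ± 12.5 CPM in siG9a. Both were higher in 3 of 4 pairs and not called (0.187 and 0.397 in the same fit), and 93.2% of the ATP6V0E2 window lies in exons of AC092681.3 on the same strand, a gene listed at 0.

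Several subunits of the pump have alternative isoforms. ATP6V0A1 and ATP6V0A2, forms of the large membrane subunit, measured 32.7 ± 2.41 and 31.1 ± 3.56 CPM in CTR and 34.1 ± 9.64 and 34.0 ± 6.40 CPM in siG9a (SD, n = 4 each). ATP6V0A4, the kidney form, and ATP6V1G3 were listed at 0 in all 8 libraries, while ATP6V0D2, ATP6V1G2 and ATP6V1C2 never exceeded 1.23 CPM, which is under the limit that a count of 0 allows. ATP6V1B1, known from kidney and inner ear, stood at 1.58 ± 1.29 CPM in CTR and 2.75 ± 2.35 CPM in siG9a. Exons of VAX2 on the same strand cover 88.4% of the last 500 exonic bases of ATP6V1B1, so its value is uncertain.

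ATP6V0C, which encodes the main proteolipid of the ring and is known from nearly all tissues, was listed at 0 in 7 libraries and at 0.57 CPM in siG9a replicate 3. In GENCODE release 29 the last 500 bases of its longest transcript lie wholly (100%) inside exons of a readthrough gene on the same strand, AC093525.2, which was itself listed at 0. MAN2B1, for lysosomal alpha-mannosidase, was the other gene with 100% same-strand cover, by AC010422.3, and it stood at 0 to 3.09 CPM. How reads in such shared exons were counted is not given in the sources used here, and these low values were not read as low expression. Exons of another gene touched the same window on the same strand in 7 of the 52 genes and on the opposite strand in 7, among them HEXA, which had both.

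**Figure D2:**
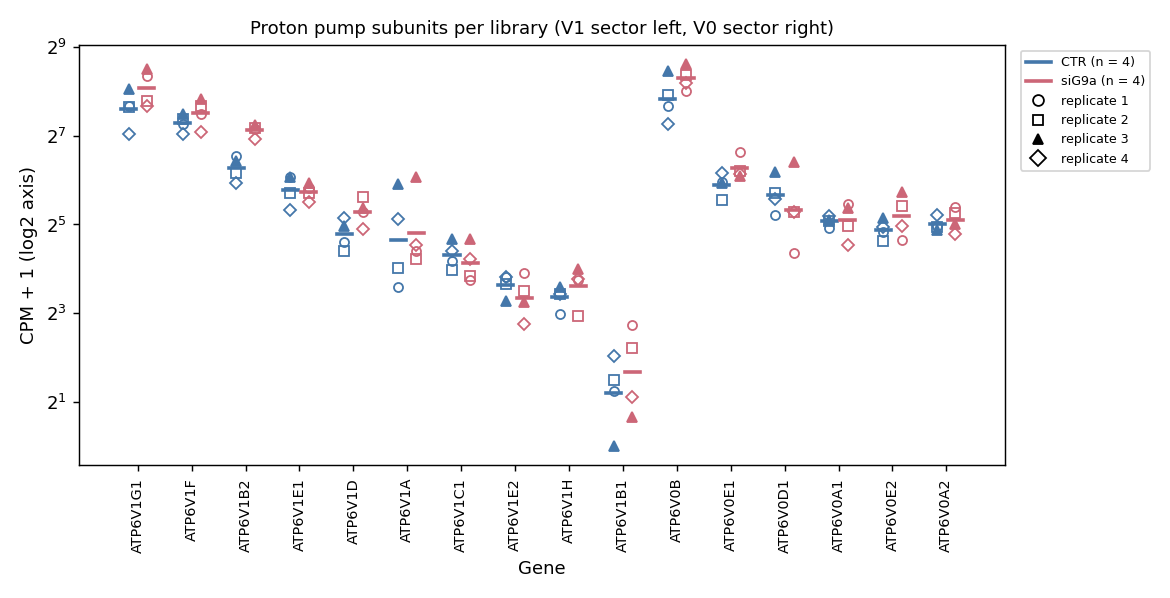
CPM + 1 of the 16 tested pump subunits on a log2 axis, by library, with CTR in blue and siG9a in red; symbols mark replicate numbers and bars the mean of log2(CPM + 1) of 4 libraries. ATP6V1B2 is the subunit whose 4 red points all lie above its blue points, and in ATP6V1A the filled triangles of replicate 3 stand above the other libraries in both groups.

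Among the 29 tested hydrolases, activator precursor and membrane or transport proteins, 0 rose and 3 fell in the paired fit (10.3%, beside 6.52% of all genes). The log2 changes were above 0 for 17 and below 0 for 12, with a median of 0.13, which was 0.0016 without CTR replicate 1. The median log2 difference over the 29 was -0.05, -0.18 and -0.03 in pairs 1 to 3 and 0.21 in pair 4. Their summed CPM over all 30 was 2996, 3225, 2253 and 2731 in CTR and 2226, 2571, 2274 and 2928 in siG9a, lower in pairs 1 and 2 and higher in pairs 3 and 4. The groups overlapped, and the sums were carried mainly by CTSA, PSAP, CTSD, PPT1 and LAMP1.

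Of the 10 peptidases, 1 fell in the paired fit (10%, where 6.52% of all genes fell) and 9 were not called. CTSB, a cysteine cathepsin, measured 50.7, 74.7, 78.1 and 71.7 CPM in CTR and 45.9, 45.4, 28.0 and 54.5 CPM in siG9a. CTR replicate 1 lay below siG9a replicate 4, so the ranges overlapped, and all 4 pairs were lower in siG9a, by least in pair 1 (90.5% of CTR) and by most in pair 3 (35.8%). The log2 change was -0.67 ± 0.20 (SE), with limma adjusted p-values of 0.0299 in the paired fit and 0.315 without the block. It was held in 6 of 9 paired fits and lost by DESeq2 (0.0776), without replicate 2 (0.141) and without replicate 3, where the log2 change was -0.41 and the adjusted p 0.278.

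CTSA, the carboxypeptidase that also protects GLB1 and NEU1 in a complex, was the highest of the 10 peptidases. It measured 794, 809, 427 and 890.0 CPM in CTR and 449, 716, 479.6 and 726 CPM in siG9a. Replicate 3 was low in CTR, 3 of 4 pairs were lower in siG9a, and the log2 change of -0.28 ± 0.15 (SE) was not called (limma adjusted p = 0.247 in the paired fit, 0.725 without the block). CTSD, the main aspartic cathepsin, stood at 321 ± 115 CPM in CTR and 275 ± 33.1 CPM in siG9a, with a paired 95% interval of the log2 change from -0.50 to 0.17. TPP1, a tripeptidyl peptidase, was higher in 4 of 4 pairs by a small amount, at 40.7 ± 4.78 and 46.5 ± 3.22 CPM, with an interval from -0.19 to 0.58. CTSL, a cysteine endopeptidase, stood at 10.7 ± 3.70 and 16.9 ± 8.87 CPM, higher in 3 of 4 pairs, and CTSC, which activates serine proteases, at 4.27 ± 3.61 and 5.67 ± 3.65 CPM; neither was called (limma adjusted p = 0.252 and 0.717 in the paired fit). The collagen-degrading CTSK, known from osteoclasts, and CTSF and CTSH lay at means under 3 CPM in both groups. CTSF and CTSK were at 3 reads or fewer in 6 of 8 libraries and CTSH in 5, so changes of ordinary size were not detectable there at this depth.

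Of the 8 tested glycosidases, 1 was called in the paired fit (12.5%, beside 11.4% of all genes). NEU4, a sialidase that removes terminal sialic acid, measured 14.4, 14.6, 6.15 and 8.31 CPM in CTR and 2.06, 0, 2.85 and 0 CPM in siG9a. All 4 siG9a values lay below all 4 CTR values, which held for 3.45% of all genes tested. The reads behind these values were few, 71 over the CTR libraries and 9 over the siG9a libraries. In siG9a replicates 2 and 4 the 95% Wilson intervals reached up to 2.33 and 2.20 CPM. The log2 change was -2.60 ± 0.45 (SE), with limma adjusted p-values of 0.000467 in the paired fit and 0.109 without the block, and it was the largest among the 45 genes. NEU4 was called in the 8 fits with the block that gave an adjusted p, while DESeq2 with the block gave none for it; DESeq2 without the block gave 0.00721. An exact two-sided permutation test of the 8 NEU4 values gave 0.0286, which the lack of overlap fixes and which adds nothing to it.

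The other sialidase, NEU1, was not called and stood higher in 4 of 4 pairs, at 13.6 ± 3.32 CPM in CTR and 19.2 ± 8.75 CPM in siG9a (SD, n = 4 each; limma adjusted p = 0.372 in the paired fit). HEXA, which clears GM2 ganglioside, was the highest of the 8 glycosidases, with 63.8, 66.2, 51.7 and 49.9 CPM in CTR and 57.8, 61.1, 76.5 and 64.8 CPM in siG9a. Its pairs split, 2 higher and 2 lower. GLB1, the lysosomal beta-galactosidase, was lower in 4 of 4 pairs at 52.0 ± 4.61 and 44.0 ± 3.73 CPM, with a paired 95% interval of the log2 change from -0.61 to 0.14 and no call (limma adjusted p = 0.455). GAA, which degrades glycogen, stood at 59.7 ± 20.8 and 50.1 ± 9.58 CPM, and GUSB, for beta-glucuronidase, at 28.4 ± 5.75 and 31.1 ± 4.83 CPM, with neither called. GLA (11.4 and 10.97 CPM) and FUCA1 (3.78 and 4.72 CPM), for alpha-galactosidase and alpha-fucosidase, were highest in replicate 3 of both groups.

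Of the 5 genes for lipid breakdown, 1 fell in the paired fit (20%, where 6.52% of all genes fell). PSAP, the precursor of the saposins that present sphingolipids to their hydrolases, measured 705, 766, 491 and 521 CPM in CTR and 386, 459, 337 and 562 CPM in siG9a. It was lower in pairs 1 to 3 and higher in pair 4, at 54.8% to 108% of CTR, and the ranges overlapped. The log2 change was -0.51 ± 0.15 (SE), with limma adjusted p-values of 0.0294 in the paired fit and 0.385 without the block. The call was held in 5 of 9 paired fits and lost by DESeq2 (0.0539). Without replicates 1, 2 or 3 the adjusted p was 0.189, 0.201 and 0.131, and without replicate 4 it was 0.00191.

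ASAH1, acid ceramidase, measured 20.6, 30.4, 32.6 and 29.6 CPM in CTR and 26.8, 39.95, 61.1 and 41.3 CPM in siG9a, higher in 4 of 4 pairs. Its log2 change of 0.53 ± 0.20 (SE) was not called (limma adjusted p = 0.0975 in the paired fit, 0.484 without the block). PPT1, a palmitoyl thioesterase, stood at 258 ± 16.1 CPM in CTR and 326 ± 66.7 CPM in siG9a (adjusted p = 0.189 by limma in the paired fit). CAP1 on the opposite strand covers the whole window (100%) of PPT1 transcript ends, and the use of strand in counting is not given in the sources used here. LIPA, acid lipase, stood at 18.5 ± 2.34 and 12.2 ± 6.61 CPM, lower in 3 of 4 pairs, with an adjusted p of 0.145 in the same fit. SMPD1, acid sphingomyelinase, stood at 15.1 ± 6.02 and 19.4 ± 9.46 CPM.

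None of the 6 membrane and transport genes was called (0 by limma in either fit, and 0 at an unadjusted p under 0.05 without the block). LAMP1, a glycoprotein of the lysosomal membrane and the highest of these 6, measured 233, 235, 205 and 219 CPM in CTR and 189, 186, 255 and 245 CPM in siG9a. Pairs 1 and 2 were lower and pairs 3 and 4 higher, and the paired 95% interval of the log2 change ran from -0.34 to 0.27. LAMP2 (36.9 ± 11.5 and 35.1 ± 11.5 CPM), the cholesterol carrier NPC2 (77.6 ± 10.4 and 82.7 ± 10.9 CPM) and SCARB2, the receptor that brings glucocerebrosidase to lysosomes (53.2 ± 13.6 and 57.5 ± 21.6 CPM), had intervals that all spanned 0. The calcium channel MCOLN1 was low, at 6.54 ± 2.58 and 7.84 ± 4.68 CPM, with an interval from -0.63 to 0.89.

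**Figure D3:**
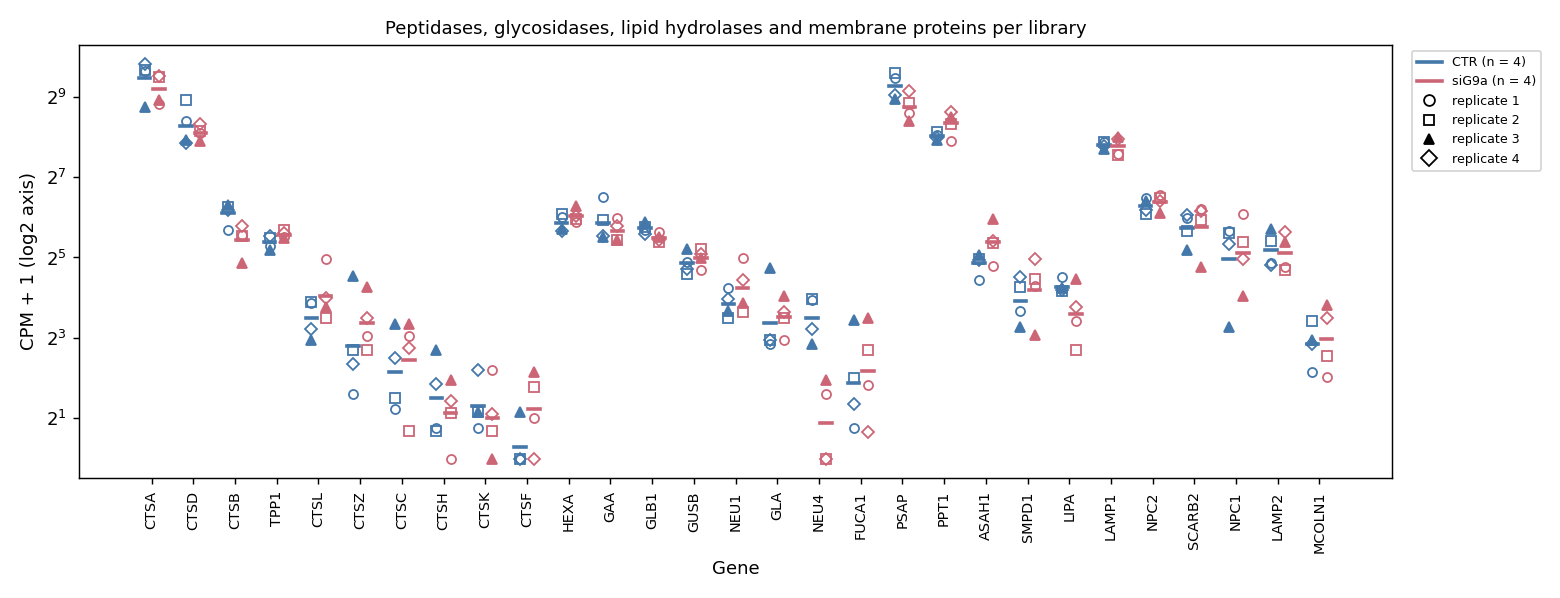
CPM + 1 of the 29 tested hydrolases, PSAP and membrane or transport proteins on a log2 axis, by library, with CTR in blue and siG9a in red; symbols mark replicate numbers and bars the mean of log2(CPM + 1) of 4 libraries. Levels span from PSAP and CTSA, the highest, to CTSF, listed at 0 in 4 libraries, and NEU4 is the gene whose red points all lie below its blue points.

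The 6 called genes differed in how far they rested on single pairs. ATP6V1B2, ATP6V1G1 and ATP6V0B were higher in 4 of 4 pairs, NEU4 and CTSB lower in 4 of 4, and PSAP lower in 3 of 4. Over the 45 genes, 11 (24.4%) moved the same way in 4 of 4 pairs, 7 higher and 4 lower, where 30.2% of all genes tested did. The groups did not overlap for 2 (4.44%), ATP6V1B2 and NEU4, where 7.32% of all genes tested did not overlap. The number of members called fell to between 2 and 5 when 1 pair was left out of the paired fit.

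**Figure D4:**
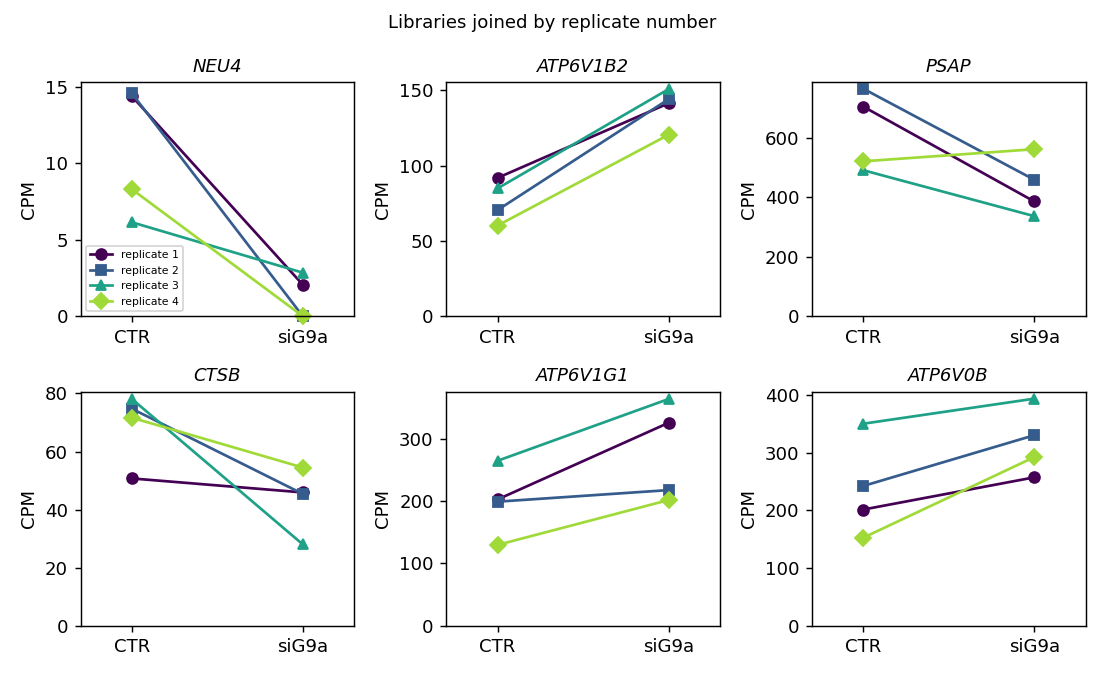
CPM of the 6 genes called in the paired fit, with each line joining the CTR and siG9a libraries of 1 replicate number; axes start at 0 and differ between panels. All 4 lines rise for ATP6V1B2, ATP6V1G1 and ATP6V0B and fall for NEU4 and CTSB, while the line of replicate 4 rises for PSAP.

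Replicate 3 stood apart from the other libraries for several members, in both groups. In 8 of the 45 genes (17.8%) replicate 3 lay at least 1 log2 unit from the mean of the other 3 libraries in the same direction in CTR and in siG9a, as did 12.9% of all genes tested. The shifts of the 45 genes in CTR and in siG9a had a correlation of 0.74 across genes, beside 0.67 over all genes tested. CTSZ, a carboxypeptidase, was at 22.1 CPM in CTR replicate 3 where the others lay between 2.06 and 5.47 CPM, and at 18.3 CPM in siG9a replicate 3 (others 5.45 to 10.3 CPM). ATP6V1A was at 59.03 and 66.2 CPM in the replicate 3 libraries, where the other CTR libraries lay between 10.97 and 33.8 CPM and the other siG9a libraries between 17.6 and 22.4 CPM. NPC1, the membrane protein that exports cholesterol from lysosomes, was low instead, at 8.61 and 15.4 CPM, with the others between 30.4 and 67.1 CPM. FUCA1, CTSC, CTSF and CTSH were also high in replicate 3 of both groups and ATP6V1B1 low, all at under 15 CPM. What sets replicate 3 apart was not tested. The paired fit compares libraries within a number, so that NPC1 had an SE of 0.22 there and of 0.54 without the block.

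**Figure D5:**
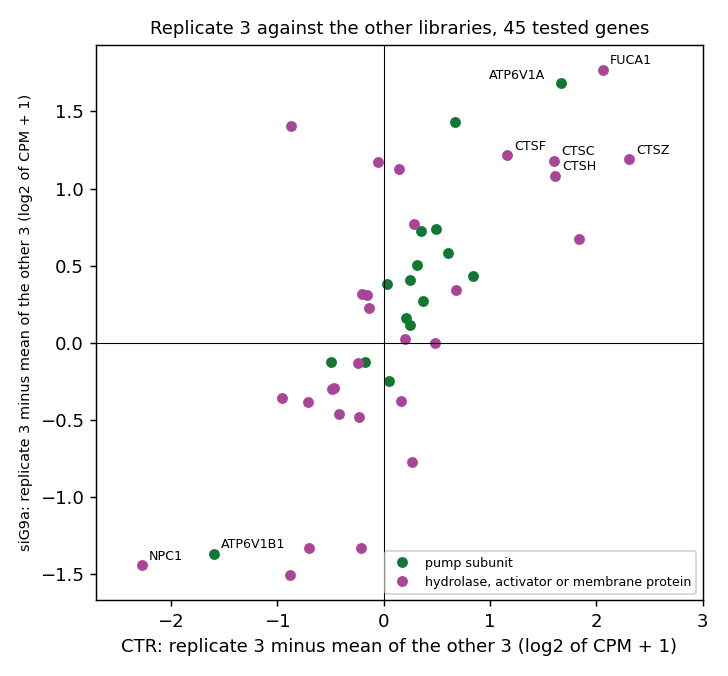
Difference of replicate 3 from the mean of the other 3 libraries of its group in log2(CPM + 1), CTR on the horizontal axis and siG9a on the vertical axis, for the 45 tested genes. Named points are the 8 genes at least 1 unit from 0 in the same direction in both groups, 6 high and 2 low.

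The E-box core was looked for in the promoters of the members, since many members are known TFEB targets. In the set of RefSeq promoters used, of build GRCh38.p14, each ran from 250 bases before to 50 bases after a transcript start. The set held entries for 39 of the 52 genes, with 50 promoters in all. CACGTG, a palindrome that reads the same on both strands, stood in 12 of these 50 promoters (24%) and in 7.26% of all 35116 promoters of that length. The 12 promoters belong to 11 of the 39 genes, since a pair of overlapping ATP6V0E2 promoters holds the same match. The longer TCACGTGA, also a palindrome and containing the former, stood in 6 of 50 (12%) and in 0.98% of all. The matches below are shown for the called pump subunits ATP6V0B and ATP6V1G1 (the third, ATP6V1B2, had no promoter entry), for the V0 subunit ATP6V0D1, and for the uncalled CTSA, GAA, LAMP1 and MCOLN1, with the core in capitals and 12 bases on each side, 5′ to 3′ on the strand of the gene.
ATP6V0B (chr1:43974891-43974920, + strand): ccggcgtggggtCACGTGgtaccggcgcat
ATP6V0B (chr1:43974909-43974938, + strand): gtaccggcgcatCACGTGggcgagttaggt
ATP6V1G1 (chr9:114587699-114587728, + strand): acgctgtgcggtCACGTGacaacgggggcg
ATP6V0D1 (chr16:67481199-67481228, - strand): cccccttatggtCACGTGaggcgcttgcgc
CTSA (chr20:45891298-45891327, + strand): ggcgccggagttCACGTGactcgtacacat
GAA (chr17:80101493-80101522, + strand): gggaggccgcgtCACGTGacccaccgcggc
GAA (chr17:80101538-80101567, + strand): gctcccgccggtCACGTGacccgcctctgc
LAMP1 (chr13:113297199-113297228, + strand): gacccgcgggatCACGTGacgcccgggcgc
MCOLN1 (chr19:7522571-7522600, + strand): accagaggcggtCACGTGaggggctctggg
MCOLN1 (chr19:7522598-7522627, + strand): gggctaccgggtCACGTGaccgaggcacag
LAMP1 held 6 matches to the core, the most of any member with a promoter entry, and CTSA held 2. Not all matches of these genes are shown.

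Of the 11 tested genes with a match, 6 had a log2 change above 0 and 5 below, with a median of 0.13, and 2 were called in the paired fit. The changes ran from -0.33 (ATP6V0D1) to 0.95 (CTSF). The value of CTSF rests on 14 reads over the 8 libraries. CTSF reached a mean of 1 CPM only through siG9a, with means of 0.31 CPM in CTR and 1.72 CPM in siG9a. Promoters were found for 33 of the 45 tested genes. Of the 22 whose promoters held no match, 17 were above 0 and 5 below, with a median of 0.16, and 1 was called, NEU4, where 11.4% of all genes tested were called. The other 3 called members, ATP6V1B2, PSAP and CTSB, had no entry in the promoter source used and were not searched. No difference between these sets was tested. ATP6V0B and ATP6V0D1 both hold the core and moved in different directions by their estimates, 0.47 and -0.33, the second not called. A match says only that these letters stand in this window.

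Further genes of the same pathways were taken from a list of 97, of which 87 were tested. In the paired fit 9 were called (10.3%, beside 11.4% of all genes), 4 higher and 5 lower. Without the block limma called 0, with 11 of the 87 at an unadjusted p under 0.05, beside 12.5% of all genes. DESeq2 without the block called 1, where it called 291 of all 15092 genes. With the block DESeq2 called 1 higher and 4 lower, where it called 969 of all genes. The paired fit called 7, 3, 3 and 8 of the further list without pairs 1 to 4. Over all genes it then called 951, 668, 1078 and 1393. LAPTM4A, a membrane protein of late endosomes and lysosomes, rose from 218 ± 43.6 to 427 ± 138 CPM (SD, n = 4) without overlap, with limma adjusted p-values of 0.000244 in the paired fit and 0.159 without the block. LAPTM5, its relative known from blood cells, fell from 27.0 ± 15.3 to 11.2 ± 6.05 CPM (limma adjusted p = 0.00582 in the paired fit and 0.385 without the block).

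Among the further hydrolases and cofactors, 3 of 25 tested were called in the paired fit (12%, beside 11.4% of all genes). LGMN, the asparagine-specific protease legumain, rose from 5.39 ± 2.60 to 14.8 ± 6.89 CPM, by most in pair 1 (662% of CTR, others 185% to 221%). NAGLU, which degrades heparan sulfate, fell from 56.0 ± 19.8 to 30.5 ± 7.83 CPM, and SUMF1, which activates sulfatases, fell from 74.6 ± 29.8 to 48.5 ± 17.5 CPM (SD, n = 4 throughout). Their limma adjusted p-values were 0.0176, 0.0118 and 0.0262 in the paired fit and 0.251, 0.351 and 0.528 without the block. In the mannose 6-phosphate sorting route, 2 of 11 were called (18.2%, beside 11.4% of all genes). GNPTG, a subunit of the enzyme that makes the sorting tag, rose from 15.0 ± 10.3 to 29.5 ± 9.49 CPM, in 3 of 4 pairs, and VPS35, of the retromer that returns receptors from endosomes, fell from 100.6 ± 32.1 to 66.6 ± 18.6 CPM. Their limma adjusted p-values were 0.0169 and 0.0206 in the paired fit, and 0.302 and 0.447 without the block. Among the 20 tested membrane proteins, TMEM192 also fell, from 141.1 ± 59.2 to 85.5 ± 22.4 CPM (limma adjusted p = 0.00877 in the paired fit and 0.426 without the block).

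Of the 10 tested accessory, assembly and regulatory genes of the pump, only VMA21 was called in the paired fit (10%, beside 11.4% of all genes). VMA21, an assembly chaperone of the V0 sector, rose from 99.9 ± 35.3 to 144 ± 57.4 CPM (SD, n = 4) and was higher in all 4 pairs. Its limma adjusted p was 0.0293 in the paired fit and 0.516 without the block. The accessory subunits ATP6AP1 (173 and 188 CPM) and ATP6AP2 (176 and 138 CPM) were not called. None of the 15 nutrient-sensing genes at the lysosome was called (0 by limma in either fit). An unadjusted limma p under 0.05 without the block was reached by 2 of the 15, beside 12.5% of all genes tested. LAMTOR3, RRAGA and RRAGC (20% of the 15) had siG9a values that all lay above the CTR values, as did 3.88% of all genes tested. Over the whole further list the groups did not overlap for 7 of 87 genes (8.05%, beside 7.32% of all genes tested). Besides these 3, LAPTM4A and GM2A, the activator of GM2 ganglioside breakdown, were higher, and OSTM1 and ABCA2 were lower. Of the 7, LAPTM4A alone was called in the paired fit. Of 4 tested transcription factors of lysosome genes 0 were called by limma in either fit, and 0 had an unadjusted p under 0.05, with TFEB at 3.88 and 3.44 CPM, TFE3 at 28.4 and 28.1 CPM and MITF at 4.17 and 4.44 CPM in CTR and siG9a. The adjusted p of these 3 was 0.871 or more by limma in the paired fit.

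As these are bulk samples, fewer cells with a transcript and less of it per cell cannot be told apart.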

How the data were processed

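Gene expression was measured by QuantSeq 3′ mRNA sequencing of 8 libraries, 4 CTR and 4 siG9a. The authors deposited CPM per gene and library, named so per the file headers. The submitters' processing notes name FastQC 0.11.8, Trim Galore, STAR 2.5.0a, HTSeq 0.8.0, edgeR 3.28 and the builds GRCh38 and hg19, with no role or order; the annotation and the use of strand are not given in the sources used here. Whole reads were recovered for 100% of non-zero values within 0.0051 CPM. Groups came from sample titles. Nothing says that replicates came from separate cultures, so p-values measure only the spread between these samples.

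The test was limma 3.58.1 (R 4.3.3) on log2(CPM + 1) with a mean of at least 1 CPM, two-sided, with Benjamini-Hochberg adjustment over 15092 genes. A pseudocount of 1 understates changes of low genes. Pairing by number was clear for replicates 1 and 3 and weak for 2 and 4. The correlation across genes of same-numbered deviations from group means was 0.50, 0.10, 0.67 and 0.13 for replicates 1 to 4. Each was above 0.1, replicate 2 barely so at 0.1038. CTR replicate 2 matched siG9a replicate 4 better (0.144), and that library matched CTR replicate 4 less well (0.130). The fit without the block was the planned main fit, and calls of the paired fit rest on this pairing. The labels do not say what a number marks. edgeR 4.0.16 and DESeq2 1.42.0 were run on the recovered reads, calling 0 and 291 genes without the block and 1711 and 969 with it. Scripts were tested on simulated data. There, libraries of a number shared their means and the planted changes were large, so that test cannot speak to the pairing or to small changes here.

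The members and lists were chosen with earlier results of these data known. Genes described in full were those called in either fit, those without overlap between groups, those with the same direction in 4 of 4 pairs and a log2 change of at least 0.5, and the highest gene of each role. From the further list, called genes were named; a few others were named after their values were seen. Symbols were matched in the deposited table, transcript ends in GENCODE release 29 (52 of 52 genes), and promoters in a set of RefSeq promoters. In that set 13 genes had no entry, which does not show that RefSeq lacks them.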

Additional observations from a re-analysis of the deposited data

Results flagged for a closer look

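Among 96 groups of 4 libraries, taken over the 45 tested genes, EHMT2 and both summed levels, 5 had a highest or lowest library set apart from the other 3 by Dixon's ratio above its 95% critical value, where chance gives about 4.80. Of the 5, 4 were a replicate 3 library, and in all 5 the library was the highest. In CTR replicate 3, GLA was at 25.8 CPM (others 6.17 to 6.75 CPM), CTSZ at 22.1 CPM (others 2.06 to 5.47 CPM) and CTSF at 1.23 CPM (others 0 CPM), the last resting on 2 reads. In siG9a replicate 3, ATP6V1A was at 66.2 CPM (others 17.6 to 22.4 CPM). In CTR replicate 1, LIPA was at 21.9 CPM (others 17.01 to 17.8 CPM).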

How the results depend on the processing

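The replicate block moved the calls most. Over all genes, limma called 0 without the block and 1717 with it. With the block, edgeR called 1711, DESeq2 969, limma with median-ratio scaling 1693, and limma on CPM over nuclear genes, an alternative added after seeing the data, 1794. Leaving out replicate pairs 1 to 4 gave 951, 668, 1078 and 1393. Without the block, DESeq2 called 291, no filter on low values gave 18, leaving out single libraries gave 0 to 300 (300 without CTR replicate 3, 2 without siG9a replicate 4), and leaving out both replicate 3 libraries gave 413. Pump subunits called, in the same order with the block, were 3, 3 (edgeR), 1 (DESeq2), 2 (median-ratio) and 3 (nuclear), with 1 to 2 without 1 pair; without the block they were 0, with 1 by DESeq2 and 1 without both replicate 3 libraries. For the other lysosome members these counts were 3, 3, 0, 3 and 3, with 1 to 3 without 1 pair, and without the block 0, with 1 by DESeq2, 1 without CTR replicate 3 and 1 without both replicate 3 libraries. For the further list they were 9, 9, 5, 9 and 12, with 7, 3, 3 and 8 without pairs 1 to 4, and without the block 0, with 1 by DESeq2, 1 without CTR replicate 3 and 2 without both replicate 3 libraries. The causes were not tested. Of the members, the block changed the calls of ATP6V1B2, ATP6V0B, ATP6V1G1, NEU4, PSAP and CTSB and no other. The median log2 change stayed above 0 in all 27 alternatives for pump subunits (0.11 to 0.31) and for the other members (0.0016 to 0.17). At 1458825 to 1938665 reads, genes under about 3 CPM rest on a few reads.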
